A study of Mus musculus with 1528 samples.

Results

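*Ccl17*, *Ccl22*, *Ccr7*, *Aldh1a2* and *Apol7c* are 5 of the 55421 genes in a table of fragment counts from single bone marrow–derived macrophages (BMDMs). The genes were chosen by their symbols, and the choice rested on earlier results of these data: in a few cells each exceeded 100 CPM (its fragments per 1000000 gene fragments of that cell), mostly under TNF. What chose them, the cells over 100 CPM, their overlap and their treatment, is therefore given as a description with no test. The BMDMs came from 2 wild-type C57BL/6 mice, were grown in culture with CSF1, and received IL4 and IL13, or these and TNF, each at 10 ng/ml, for 24 h. No group was left without IL4 and IL13, so every value of TNF is on top of them, and a bone marrow culture can hold cells other than macrophages. Single live cells were sorted into 384-well plates, plates 2 and 3 from mouse 1 and plates 4 and 5 from mouse 2, with IL4+IL13 in rows A to H and IL4+IL13+TNF in rows I to P of each plate.

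CCL17 and CCL22 are chemokines that both bind the receptor CCR4 on T cells, and both are known from dendritic cells and from macrophages exposed to IL4. CCR7 is the receptor for CCL19 and CCL21 that guides dendritic cells from tissue to lymph nodes once they mature. ALDH1A2 (also called RALDH2) makes retinoic acid from retinal, an activity known from dendritic cells that imprint gut homing on T cells. APOL7C belongs to the apolipoprotein L family. A dendritic cell that matures raises CCR7, MHC class II, costimulatory molecules and the actin-bundling protein fascin together, while macrophages are marked by the CSF1 receptor, F4/80 (encoded by *Adgre1*) and lysozyme M (*Lyz2*).

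*Ccl17* (ENSMUSG00000031780) lies at chr8:94810453-94812036 on the plus strand of mm10, and *Ccl22* (ENSMUSG00000031779) lies at chr8:94745590-94751699 on the same strand, with 58.8 kb and 2 genes, *Cx3cl1* and *Gnb1-ps3*, between them. *Ccr7* (ENSMUSG00000037944) lies at chr11:99144196-99155077 on the minus strand, *Aldh1a2* (ENSMUSG00000013584) at chr9:71215789-71296243 on the plus strand and *Apol7c* (ENSMUSG00000044309) at chr15:77524852-77533316 on the minus strand. Fragments were counted over all exons of a gene without regard to strand. *Aldh1a2* is the only member that overlaps another gene of the table, the antisense *Gm48124*, which had 51 fragments in all kept wells.

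The bases upstream of the start sites are shown for 4 of the 5 genes, since these genes were high together in the same cells and each is far from the others except *Ccl17* and *Ccl22*. They come from RefSeq on GRCm38.p6, 5′ to 3′ on the strand of the gene, and cover chr8:94810203-94810452 for *Ccl17*, chr8:94745434-94745589 for *Ccl22*, chr9:71215539-71215788 for *Aldh1a2* and chr15:77533317-77533565 for *Apol7c*. The window is the 250 bases before the RefSeq start, without bases that the count table assigns to the gene. Capitals mark matches on either strand to a loose NF-κB pattern (GGG, any 5 bases, CC), a STAT6 pattern (TTC, any 4 bases, GAA) or an AP-1 pattern (TGANTCA).
Ccl17: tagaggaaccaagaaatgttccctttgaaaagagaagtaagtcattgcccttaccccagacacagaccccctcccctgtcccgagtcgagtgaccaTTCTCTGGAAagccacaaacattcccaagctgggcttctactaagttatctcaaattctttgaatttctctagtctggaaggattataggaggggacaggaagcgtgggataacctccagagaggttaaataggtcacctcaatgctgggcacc
Ccl22: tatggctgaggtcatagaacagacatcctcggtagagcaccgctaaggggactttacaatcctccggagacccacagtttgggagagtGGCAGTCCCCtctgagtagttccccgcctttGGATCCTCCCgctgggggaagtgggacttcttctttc
Aldh1a2: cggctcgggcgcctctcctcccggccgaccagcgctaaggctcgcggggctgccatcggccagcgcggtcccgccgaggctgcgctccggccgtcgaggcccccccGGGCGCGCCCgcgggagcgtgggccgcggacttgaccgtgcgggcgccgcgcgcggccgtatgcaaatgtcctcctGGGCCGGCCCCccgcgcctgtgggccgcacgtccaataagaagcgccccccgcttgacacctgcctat
Apol7c: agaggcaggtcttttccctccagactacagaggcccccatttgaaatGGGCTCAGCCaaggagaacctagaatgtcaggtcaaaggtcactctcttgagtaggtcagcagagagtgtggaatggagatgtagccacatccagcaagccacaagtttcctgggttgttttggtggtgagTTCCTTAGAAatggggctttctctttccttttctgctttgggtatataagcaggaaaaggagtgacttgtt

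The NF-κB pattern matched at 2 places upstream of *Ccl22*, at 3 places upstream of *Aldh1a2*, of which 2 overlap, and at 1 place upstream of *Apol7c*. It is loose enough to match in 45.8% of the 32851 promoters in the RefSeq table. The STAT6 pattern matched upstream of *Ccl17* and of *Apol7c*, against 5.85% of all promoters. The AP-1 pattern, held by 6.75% of all promoters, matched in none of the 4. No pattern was shared by all 4 windows, and a match describes letters only.

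Of 1524 wells of known mouse and treatment, 1386 passed the quality filter. They held 200235 to 6122892 gene fragments, with a median of 477871 over the 690 cells with IL4+IL13 and of 464673 over the 696 cells with IL4+IL13+TNF. The protocol has no molecular identifiers, so copies made by PCR are all counted, and intervals of shares cover counting error only. The share of all fragments that the 5 genes took came from few cells: cells over 100 CPM carried 98.4% of the fragments of *Ccl17*, 99.1% of those of *Ccl22*, 99.0% of those of *Ccr7*, 99.0% of those of *Aldh1a2* and 98.9% of those of *Apol7c*.

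37 of the 1386 cells exceeded 100 CPM of at least 1 of the 5 genes, and 34 of the 37 had received TNF. *Ccl22* exceeded 100 CPM in 23 cells, *Apol7c* in 22, *Ccl17* in 16, *Aldh1a2* in 13 and *Ccr7* in 12. With IL4+IL13 alone, 2 cells exceeded 100 CPM of *Ccl22*, at 113 and 122 CPM, and 1 exceeded it of *Apol7c*, at 150 CPM. No cell with IL4+IL13 exceeded 100 CPM of *Ccl17*, *Ccr7* or *Aldh1a2*. A count of 0 among 690 cells allows a share of up to 0.435%.

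**Figure D1:**
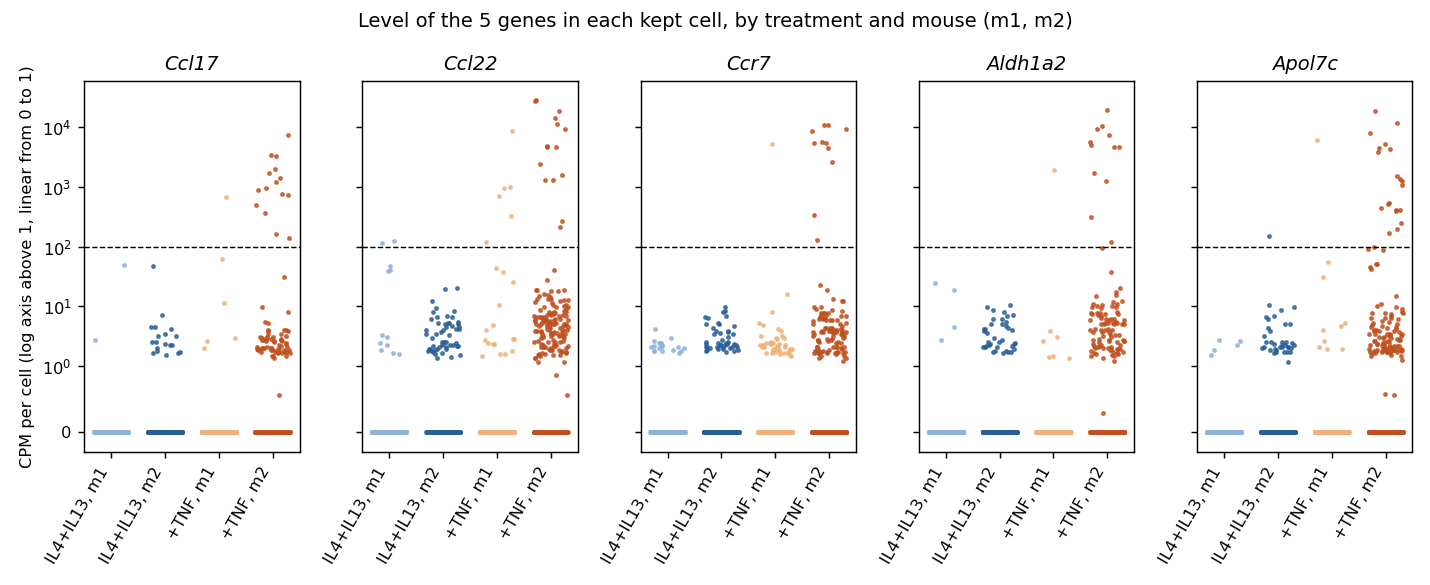
Each point is 1 kept cell, the y axis gives its CPM on a log axis above 1, and the dashed line marks 100 CPM. Cells over the line lie mostly in mouse 2 with IL4+IL13+TNF, and most other cells with a fragment lie between 1 and 10 CPM.

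Cells over 100 CPM were more frequent with TNF in both mice, and most of them came from mouse 2. For *Ccl17*, 1 of 347 cells of mouse 1 with TNF (0.288%, 95% exact Clopper-Pearson interval 0.00730 to 1.595) and 15 of 349 cells of mouse 2 with TNF (4.298%, 2.42 to 6.99) exceeded 100 CPM. For *Ccl22* the counts with TNF were 6 of 347 and 15 of 349, against 2 of 357 and 0 of 333 with IL4+IL13. *Ccr7* gave 1 and 11 cells, *Aldh1a2* 1 and 12 and *Apol7c* 1 and 20 with TNF in mouse 1 and mouse 2.

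The difference between the treatments was larger in mouse 2 for all 5 genes. It was 0.288 percentage points in mouse 1 and 4.298 in mouse 2 for *Ccl17*, and 1.17 and 4.298 for *Ccl22*. For *Ccr7* it was 0.288 and 3.15, for *Aldh1a2* 0.288 and 3.44, and for *Apol7c* 0.288 and 5.43 percentage points. With 2 mice, an exact two-sided permutation test could not give a p below 0.333.

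The overlap of the 5 genes was large. 11 cells exceeded 100 CPM of all 5 genes, 1 of 4, 2 of 2 and 23 of only 1. All 11 had received IL4+IL13+TNF: 1 of 347 cells of mouse 1 (0.288%, interval 0.00730 to 1.595) and 10 of 349 cells of mouse 2 (2.87%, 1.38 to 5.21). By plate, 1 cell lay on plate 2, 0 on plate 3, 7 on plate 4 and 3 on plate 5, so without plate 4 the count was 4. Since the genes were chosen with this overlap in view, it is not a test of it.

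*Ccr7* was the member least often high without the others. All 12 cells over 100 CPM of *Ccr7* also exceeded it for *Apol7c*, and 11 of them for each of *Ccl17*, *Ccl22* and *Aldh1a2*. Of the 22 cells over 100 CPM of *Apol7c*, 12 (54.5%) exceeded it for *Ccr7*. For the neighbouring chemokine genes, 13 cells exceeded 100 CPM of both, which is 81.2% of the 16 cells for *Ccl17* and 56.5% of the 23 cells for *Ccl22*. *Ccl22* was high without any of the other 4 genes in 10 cells, *Apol7c* in 9, *Ccl17* in 3, *Aldh1a2* in 1 and *Ccr7* in 0.

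At the threshold itself, the nearest cells on either side stood at 62.5 and 140 CPM for *Ccl17*, at 47.6 and 113 for *Ccl22*, at 22.9 and 128 for *Ccr7*, at 93.3 and 119 for *Aldh1a2* and at 97.99 and 150 for *Apol7c*. With the threshold at 50 or 200 CPM, the cells with all 5 genes numbered 11 or 10.

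In the 11 cells with all 5 genes, the chemokine *Ccl22* ranged from 1311 to 28599 CPM with a median of 8681. *Ccl17* ranged from 162 to 3404 CPM with a median of 976. The receptor *Ccr7* ranged from 345 to 11148 CPM with a median of 5551. Every gene spanned more than an order of magnitude among these cells, from 15.2-fold between the lowest and highest cell for *Aldh1a2* to 32.3-fold for *Ccr7*. The enzyme *Aldh1a2* ranged from 1283 to 19459 CPM with a median of 5022, and *Apol7c* from 1239 to 18892 CPM with a median of 4468.

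Per length, in CPM per kilobase of exon (FPKM), the medians over the 11 cells were 3734 for *Ccl22*, 2806 for *Ccr7*, 2218 for *Aldh1a2*, 2169 for *Apol7c* and 1900 for *Ccl17*. The ranges overlapped throughout, so the order was not the same in every cell: *Ccl22* was the highest per length in 5 cells, *Ccr7* in 3, *Apol7c* in 2 and *Aldh1a2* in 1. The cell of mouse 1, in well P13 of plate 2, lay within the range of the 10 cells of mouse 2 for all 5 genes, at 678 CPM of *Ccl17*, 8681 of *Ccl22*, 5305 of *Ccr7*, 1926 of *Aldh1a2* and 6117 of *Apol7c*.

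Among the 11 cells, the levels of *Ccl17*, *Ccl22* and *Aldh1a2* varied together, those of *Ccr7* did so little and those of *Apol7c* ran the other way. On the log2 CPM scale, Pearson's r was 0.80 between *Ccl17* and *Ccl22*, 0.83 between *Ccl17* and *Aldh1a2* and 0.73 between *Ccl22* and *Aldh1a2*. It was between -0.05 and 0.08 for *Ccr7* with these 3 genes, and between -0.60 and -0.32 for *Apol7c* with them. These are descriptions over 11 cells, of which 7 share plate 4, with all values of a cell divided by the same total.

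The 11 cells were of ordinary depth with fewer genes detected. They had a median of 497989 fragments (334340 to 672606) and 7020 detected genes (5553 to 8550), against 463179 fragments and 8035 genes in the 662 cells with TNF that had none of the 5 genes over 100 CPM, and 486759 fragments and 7863 genes in the 321 of these from mouse 2. Mitochondrial genes took a median of 3.76% in the 11 cells, 2.96% in the 662 and 3.27% in the 321, and the spike-in RNAs 0.0735%, 0.0464% and 0.0543%.

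The label of the program, mature dendritic cell, was checked against marker lists that were not used to choose the genes. The lists were set with earlier results of these data known, so the check is a description and not independent. The 11 cells exceeded 100 CPM of 17 to 21 of 27 mature dendritic cell genes (median 19), and the 1349 cells without any of the 5 genes over 100 CPM did so for 0 to 9 of them (median 3). The summed level of the list was 11529 to 29021 CPM in the 11 cells and at most 4404 CPM in the 1349. No other cell reached 17 of the 27 genes. The 1349 hold 687 cells with IL4+IL13 and 662 with TNF, whereas all 11 had received TNF. Contrasts of the 11 with the 1349, here and below, therefore mix cell and treatment.

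*Fscn1*, which encodes fascin, ranged from 100.4 to 682 CPM in the 11 cells and exceeded 100 CPM in no other kept cell. *Cacnb3*, a calcium channel subunit, ranged from 299 to 1753 CPM in them and exceeded 100 CPM in 2 of the 1349 cells. The NF-κB subunit *Relb* and the signalling adaptor *Traf1* exceeded 100 CPM in all 11 cells, against 108 and 184 of the 1349. By mouse, 0 of 357 and 0 of 333 cells with IL4+IL13, and 1 of 347 and 10 of 349 cells with IL4+IL13+TNF, exceeded 100 CPM of *Fscn1*. In the same order, 16, 17, 80 and 92 cells exceeded 100 CPM of *Traf1*, and 9, 14, 36 and 64 cells that of *Relb*.

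Other genes of the list were mixed. *Cd83*, a maturation marker, was at 1403 CPM or more in all 11 cells, *Samsn1* at 637 CPM or more and *Tmem123* at 1857 CPM or more, but both *Cd83* (282 cells) and *Tmem123* (704 cells) also exceeded 100 CPM in many of the 1349. *Il12b*, which encodes the shared subunit of IL12 and IL23, exceeded 100 CPM in 5 of the 11 and in 0 of the 1349 cells. *Il4i1*, *Cd80* and *Zmynd15* exceeded 100 CPM in 0, 1 and 2 of the 11 cells. List genes beyond 4 per list, here and in the next paragraphs, were picked after their values were seen.

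Most MHC class II genes were high in the 11 cells, though not only there. *H2-Aa*, *H2-Ab1* and *H2-Eb1*, the classical class II chains, had medians of 11848, 6534 and 8827 CPM, against 18.6, 40.2 and 9.98 CPM in the 1349 cells, of which 390, 497 and 291 exceeded 100 CPM. *H2-DMb2*, a chain of the peptide-loading molecule H2-DM, exceeded 100 CPM in 9 of the 11 cells and 12 of the 1349, and the invariant chain *Cd74* in 11 and 713. *H2-DMa*, the partner chain, ran the other way, with a median of 10.04 CPM in the 11 cells, 3 of them over 100 CPM, against 38.3 CPM in the 1349, of which 497 were over it. *H2-DMb1* and the class II transactivator *Ciita* exceeded 100 CPM in 5 of the 11 cells each, and in 490 and 165 of the 1349. Of the 23 cells with only 1 of the 5 genes over 100 CPM, 17, 18 and 18 exceeded it for *H2-Aa*, *H2-Ab1* and *H2-Eb1*. The median was 6 of 8 class II genes over 100 CPM in both these cells and the 11. Over all kept cells of mouse 1 and mouse 2, *H2-Aa* exceeded it in 40 and 63 with IL4+IL13 and in 149 and 169 with TNF.

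The 13 genes of conventional dendritic cell identity were mixed. Their summed level had a median of 2211 CPM in the 11 cells and 178 CPM in the 1349. The transcription factors *Irf8* and *Batf3* exceeded 100 CPM in 9 and 6 of the 11 cells, against 598 and 81 of the 1349. *Ly75*, *Irf4* and *Itgax* did so in 4 of the 11 cells each, against 13, 111 and 200 of the 1349. *Zbtb46* and *Dpp4* did so in 2 of the 11 each, against 7 and 0, and *Kit* in 1 against 19. *Xcr1*, *Clec9a* and *Itgae*, genes of the cDC1 lineage, were at 0 in all 11, *Cd209a* reached at most 1.57 CPM, and *Flt3* did not exceed 76.2 CPM.

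Macrophage genes were low in the 11 cells. *Csf1r*, the CSF1 receptor, ranged from 4.49 to 68.3 CPM, against a median of 1057 CPM in the 1349 cells, and *Adgre1* ranged from 0 to 38.2 CPM against a median of 686. *Mrc1*, the mannose receptor, reached at most 26.1 CPM against a median of 745, and the complement gene *C1qb* 167 CPM against a median of 1447. *Lyz2* ranged from 139 to 1412 CPM against a median of 13512, so it was present in every one of the 11 cells at a lower level. The summed level of 13 macrophage genes was 196 to 2295 CPM in the 11 cells and 1424 to 114531 CPM in the 1349.

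Genes of other cell types were near 0 apart from B cell genes and *Cd8a* in a few cells. The summed level of the 8 neutrophil genes reached at most 17.9 CPM in the 11 cells, that of the 5 stromal genes 3.69, of the 6 mast cell or basophil genes 2.49 and of the 4 plasmacytoid dendritic cell genes 1.84. Among them, *S100a8* reached 14.95 CPM, *Gata2* 2.49, and *Cd200r3* and *Siglech* 1.84 CPM each, while *Dcn*, *Ccr9* and *Cd300c* were at 0. Of the 6 T or NK cell genes, 5, *Cd3g* included, were at 0 in all 11 cells, and *Cd8a* was at 201 CPM in 1 cell. Of the B cell genes, *Cd79a* and *Ms4a1* were at 0, *Cd79b* exceeded 100 CPM in 3 cells, reaching 431 CPM, and *Ighm* in 1, at 725 CPM. The list summed to at most 941 CPM in a cell. Of the 1349 cells, 7 exceeded 100 CPM of *Cd79b* and 286 (21.2%) that of *Ighm*, so *Ighm* was not particular to the 11. By this check the 11 cells carried fascin, most class II and most maturation genes. Genes of dendritic cell identity were over 100 CPM in some of the 11 cells, and *Xcr1*, *Clec9a* and *Itgae* in none. The classical class II chains exceeded 100 CPM in most of the 23 cells with 1 of the 5 genes as well.

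**Figure D2:**
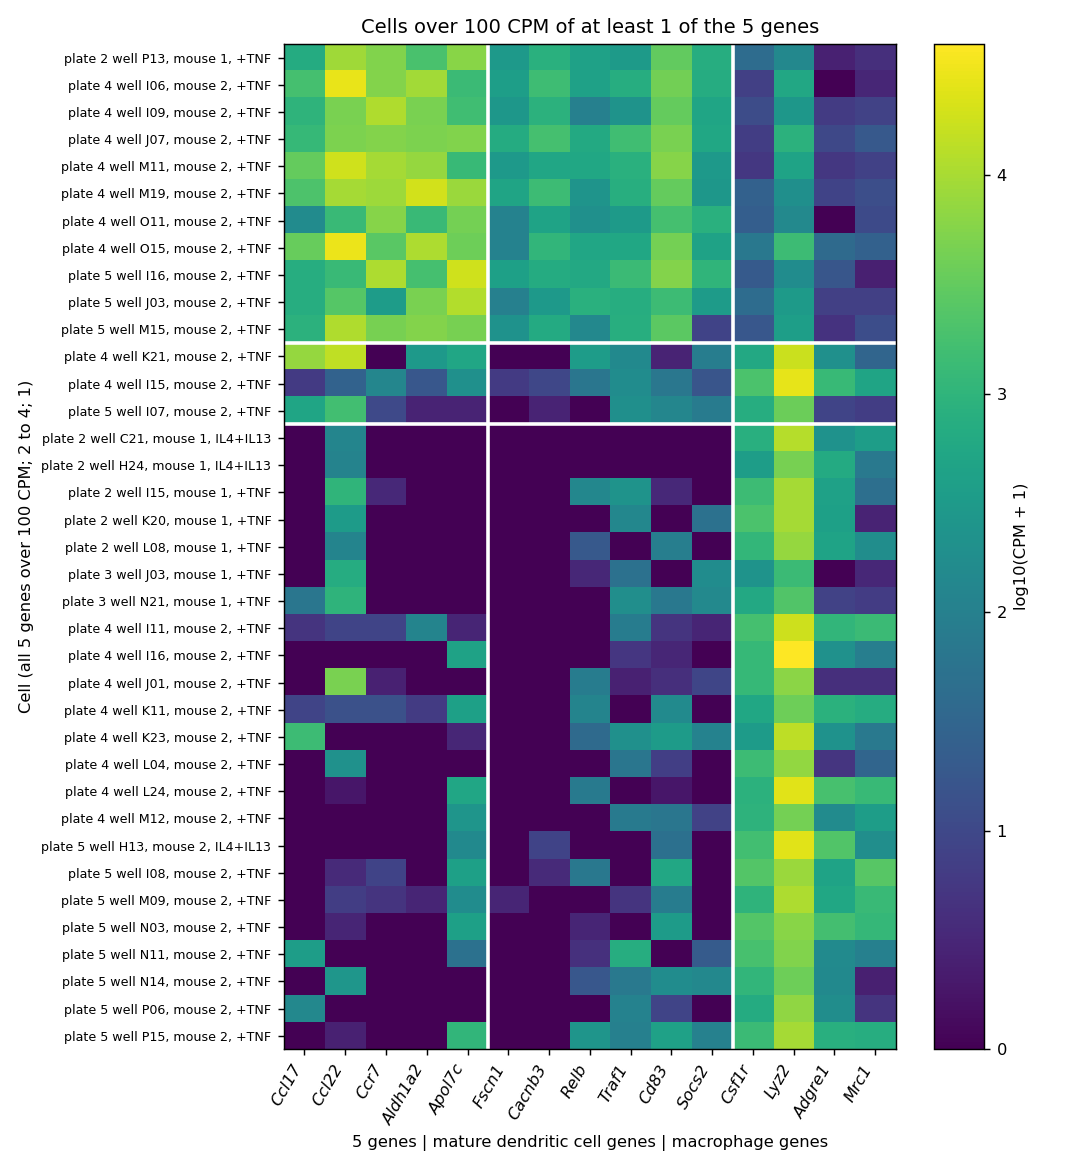
The rows are the 37 cells over 100 CPM of at least 1 of the 5 genes, in blocks of cells with all 5 genes (11), 2 to 4 genes (3) and 1 gene (23), and colour gives log10(CPM + 1). The top block carries the 5 genes and the mature dendritic cell genes with little of the macrophage genes, and the bottom block carries 1 gene with *Csf1r* and *Lyz2*.

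The cells that were high for only some of the 5 genes differed from the 11. In well K21 of plate 4, *Ccl17* stood at 7431 and *Ccl22* at 14233 CPM, the highest *Ccl17* of any cell, with *Aldh1a2* at 312, *Apol7c* at 520 and *Ccr7* at 0 CPM. The same cell had 595 CPM of *Csf1r* and 16949 CPM of *Lyz2*, and *Fscn1* and *Cacnb3* at 0. In well I07 of plate 5, *Ccl17* stood at 504 and *Ccl22* at 1600 CPM, and in well I15 of plate 4 *Ccr7* stood at 128 and *Apol7c* at 199.9 CPM, with *Csf1r* at 733 and 1977 CPM. Cells were sorted singly and no doublet caller was run, so 2 cells in such a well were not tested for. Well I15 held 3 to 117 fragments of each of the 5 genes. It shares row I with wells I06 and I09 and column 15 with well O15, all with the 5 genes over 100 CPM. Carry-over between wells was not tested for these levels either.

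The 23 cells with 1 gene over 100 CPM carried macrophage genes. *Csf1r*, *Lyz2* and *Cd68* exceeded 100 CPM in all 23 and *Adgre1* in 19, while *Fscn1* was at most 1.98 and *Cacnb3* at most 7.31 CPM. *Ccl22* alone was high in 10 such cells, 7 of them in mouse 1: 2 with IL4+IL13 and 5 with TNF, the highest of the latter at 1015 CPM. In mouse 2, *Ccl22* alone was high in 3 cells with TNF, at 214, 264 and 4657 CPM. *Apol7c* alone was high in 9 cells, all in mouse 2, from 150 to 1071 CPM.

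The 5 genes were next compared as sums over all kept cells of a mouse and treatment, with the mice as replicates. Mouse 1 and mouse 2 gave sums of *Ccl17* of 0.118 and 0.290 CPM with IL4+IL13, and of 2.90 and 70.7 CPM with TNF added. *Ccl22* summed to 1.10 and 0.690 CPM with IL4+IL13 and to 43.7 and 369 CPM with TNF. *Ccr7* summed to 0.112 and 0.450 CPM and to 20.5 and 190 CPM. In each case both sums with TNF lay above both sums without it, and the sum of mouse 2 with TNF was the higher of the pair.

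*Aldh1a2* summed to 0.107 and 0.444 CPM with IL4+IL13 and to 7.35 and 209.6 CPM with TNF, and *Apol7c* to 0.0281 and 0.887 CPM and to 23.5 and 198 CPM. The log2 fold changes fitted by edgeR were 7.58 ± 1.78 (SE) for *Ccl17*, 7.93 ± 1.26 for *Ccl22*, 8.64 ± 1.51 for *Ccr7*, 8.72 ± 1.99 for *Aldh1a2* and 8.02 ± 1.87 for *Apol7c*, each over 2 sums per treatment. Their median was 8.02, against 0.00 over all 17034 genes tested. Each SE, here and below, is the one implied by the F statistic of edgeR's test. In such sums, fewer cells with a gene and less of it per cell cannot be told apart, and the counts of cells over 100 CPM are the values that bear on that.

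Of the 5 genes, 0 passed edgeR's quasi-likelihood test at a Benjamini-Hochberg adjusted p under 0.05 over all genes (adjusted p from 0.210 to 0.357), as 0.00587% of all genes did by rising and 0.0% by falling. The unadjusted p of the 5 was 0.00149 to 0.00785, and 1380 of the 17034 genes had one under 0.05. With the mouse as a replicate block, which pairs the sums of 1 mouse, 5 of 5 rose (adjusted p from 0.00555 to 0.0279), as did 1.94% of all genes, while 1.88% fell. With DESeq2, 5 of 5 rose, as did 1.79% of all genes. Since the genes were chosen for this contrast, nothing is read from these counts.

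**Figure D3:**
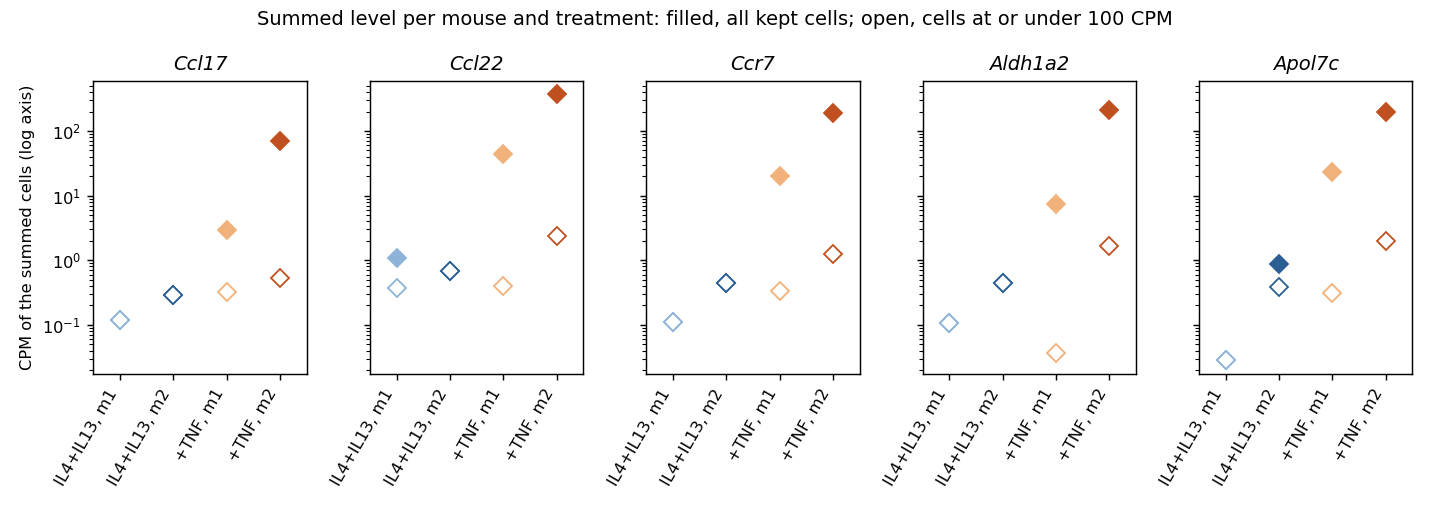
Filled diamonds give the CPM of all kept cells summed per mouse (m1, m2) and treatment on a log axis, and open diamonds the same without cells over 100 CPM of the gene. The filled diamonds with TNF lie above those with IL4+IL13 for all 5 genes, and without the cells over 100 CPM all diamonds lie at or under 2.40 CPM.

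Without the cells over 100 CPM, the sums with TNF fell to 0.327 and 0.539 CPM for *Ccl17*, 0.402 and 2.40 for *Ccl22*, 0.334 and 1.23 for *Ccr7*, 0.0371 and 1.65 for *Aldh1a2* and 0.309 and 1.98 CPM for *Apol7c* in mouse 1 and mouse 2. The matching sums with IL4+IL13 were 0.118 and 0.290, 0.367 and 0.690, 0.112 and 0.450, 0.107 and 0.444, and 0.0281 and 0.383 CPM. What remained was higher in mouse 2 than in mouse 1 under both treatments for all 5 genes. Mouse 2 also held 10 of the 11 cells with all 5 genes.

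In mouse 2 these remainders lay in many cells, though not evenly, and in mouse 1 some rested on few. With IL4+IL13 in mouse 2, the 47 fragments of *Ccl17* lay in 19 cells, 21 of them in 1 cell at 47.0 CPM. With IL4+IL13 in mouse 1, the 21 fragments of *Ccl17* lay in 2 cells, 1 of them at 49.95 CPM, and with TNF 45 of the 53 fragments lay in well N21 of plate 3. Over both mice, *Ccl22* was at 0 in 1143 of 1386 cells, at up to 10 CPM in 188, at 10 to 100 CPM in 32 and higher in 23. For *Ccr7*, 204 cells had up to 10 CPM, 6 had 10 to 100 and 12 had more. *Ccl17*, *Aldh1a2* and *Apol7c* had 83, 125 and 139 cells at up to 10 CPM and 5, 16 and 13 at 10 to 100 CPM. Most cells with a fragment of any of the 5 genes thus had 10 CPM or less.

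To set depth equal, 339358 fragments were drawn from each cell, and 139 cells with fewer were dropped. The share of cells with a fragment of *Ccl22* was then 2.72% and 14.6% with IL4+IL13 and 6.27% and 41.3% with TNF in mouse 1 and mouse 2. For *Ccr7* the shares were 3.02% and 11.4%, and 9.57% and 28.2%. *Ccl17* gave 0.604% and 4.87%, and 1.65% and 16.7%, the lowest shares of the 5 with TNF in mouse 2. *Aldh1a2* gave 0.604% and 9.09%, and 1.32% and 28.2%, and *Apol7c* 0.302% and 9.09%, and 1.98% and 26.2%. At the full depth, *Ccl22* gave 3.36% and 16.2%, and 6.34% and 44.4%.

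The low counts followed the position of a well on its plate. On plate 4, a fragment of *Ccl22* was found in 49 of the 72 wells (68.1%) with IL4+IL13 that lay in a column with a well over 100 CPM, and in 1 of the other 120 (0.833%), although the wells over 100 CPM all lay in rows I to P, with TNF. The summed levels of these wells were 3.23 and 0.0171 CPM. Among the wells of plate 4 with TNF at or under 100 CPM, 68 of 151 (45.0%) that shared a row or column with a well over 100 CPM, and 0 of the 28 that shared neither, had a fragment.

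**Figure D4:**
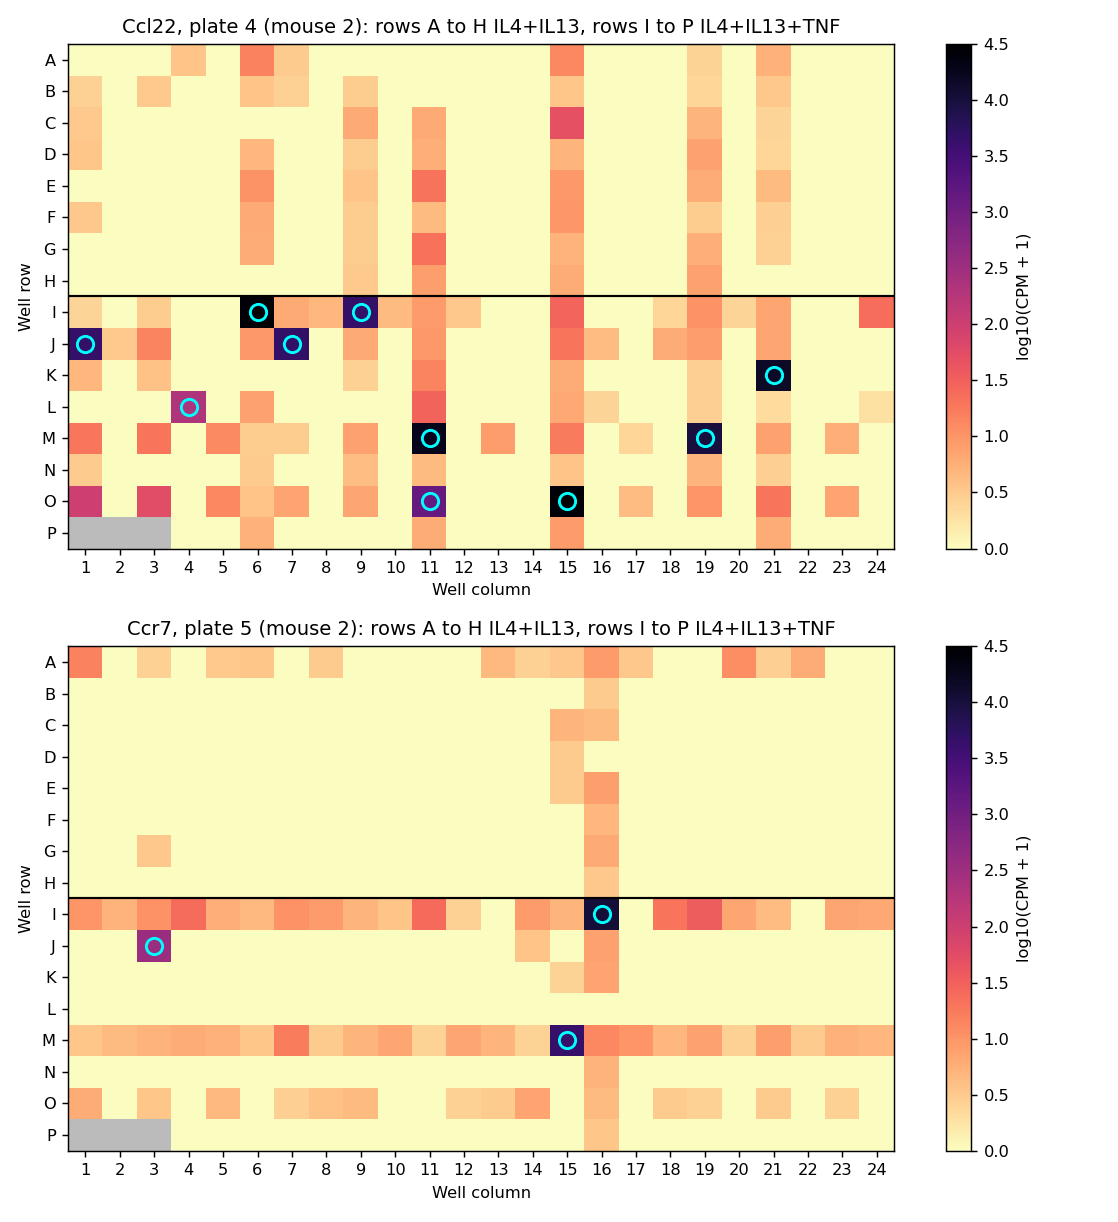
Each square is 1 well of plate 4 (*Ccl22*, above) or plate 5 (*Ccr7*, below), colour gives log10(CPM + 1), circles mark wells over 100 CPM, the line divides IL4+IL13 (rows A to H) from IL4+IL13+TNF (rows I to P), and grey wells are not in the comparison. Low levels run along the columns and rows of the circled wells, into rows A to H as well, and along row A and row O of plate 5, where no circled well lies.

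The other 4 genes showed the same arrangement. In columns of plate 4 with a well over 100 CPM, a fragment was found in 26.6% of 64 wells with IL4+IL13 for *Ccl17*, 52.1% of 48 for *Ccr7*, 50.0% of 56 for *Aldh1a2* and in 16 of 80 for *Apol7c*. In the other columns the shares were 0.781% of 128, 2.08% of 144, 2.21% of 136 and 0.893% of 112 wells. On plate 4, no well with TNF that shared neither row nor column with a well over 100 CPM had a fragment of any of the 5 genes (45, 28, 69, 48 and 25 wells for *Ccl17*, *Ccl22*, *Ccr7*, *Aldh1a2* and *Apol7c*).

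Over all plates with a well over 100 CPM, the share with a fragment was higher among wells that shared a row or column with it than among those that shared neither, by 17.6 percentage points for *Ccl17*, 27.6 for *Ccl22*, 39.6 for *Ccr7*, 40.1 for *Aldh1a2* and 29.5 for *Apol7c*. These differences pool both treatments, and wells that shared a row with a well over 100 CPM were mostly wells with TNF. The pooled difference was positive on each of the 3 or 4 plates that held such a well. It ran from 5.26 points for *Ccr7* on the plate with the smallest difference to 51.8 for *Ccl22* on the plate with the largest. Within TNF on plate 5, the shares were 20.9% and 18.5% for *Ccl17*, 48.2% and 39.2% for *Ccl22*, and 61.4% and 11.7% for *Ccr7*. For *Ccr7*, plate 3 counted only through 1 shallow well that the quality filter removed, in which 3 fragments made 132 CPM.

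**Figure D5:**
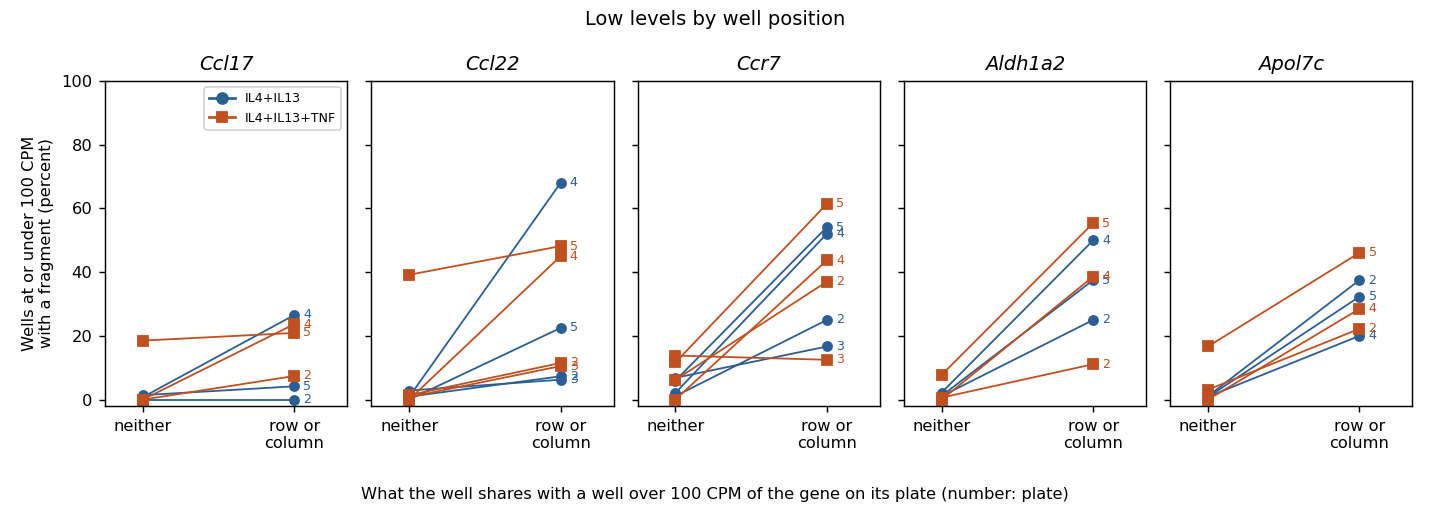
The y axis gives the percent of wells at or under 100 CPM with a fragment, for wells that share neither row nor column (left) or a row or column (right) with a well over 100 CPM of the gene on the plate, and each line is 1 plate and treatment. Of the lines, those for *Ccl17* on plate 2 with IL4+IL13 (0% on both sides) and for *Ccr7* on plate 3 with TNF do not rise.

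Position did not account for all of them by this definition. On plate 5, 29 of 74 wells (39.2%) with TNF that shared neither row nor column had a fragment of *Ccl22*, and 23 of the 24 wells of row O and 13 of the 24 wells of row K did, with no well over 100 CPM in either row. *Ccr7* was found in 13 of the 24 wells of row A and 14 of the 24 wells of row O of plate 5. Rows were singled out after the plate maps were seen.

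With the thinned cells limited to wells that shared neither row nor column, the share with a fragment of *Ccl17* was 0.617% and 0.474% with IL4+IL13 and 1.03% and 4.76% with TNF in mouse 1 and mouse 2. For *Aldh1a2* it was 0.309% and 0.420%, and 0.345% and 3.76%. For *Apol7c* it was 0% of 324 cells (exact interval up to 1.13%) and 0.541%, then 0.690% and 7.35%. *Ccr7* kept 2.02% and 2.03%, and 7.45% and 6.90%. *Ccl22* kept 1.59% and 0.472%, and 0.602% and 25.3%, where the last value includes the rows K and O named above. With IL4+IL13, no gene was thus found in more than 2.03% of the cells in such wells. The part of carry-over between wells in the low levels was not tested.

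Across cells, the genes most like each of the 5 were mostly the other 4 and mature dendritic cell genes. Since the 5 genes were chosen with their overlap in the same cells in view, their likeness to each other is a description and no test. Likeness is Pearson's r of log2(CPM + 1) over kept cells, averaged over the 4 sets of mouse and treatment, against 25478 genes. *Aldh1a2* was the gene most like *Ccl17* (mean r 0.41), *Ccl22* (0.46), *Ccr7* (0.49) and *Apol7c* (0.51), and *Apol7c* was the gene most like *Aldh1a2*. *Cacnb3* was among the 5 most alike for *Ccl22*, *Ccr7*, *Aldh1a2* and *Apol7c*, with mean r from 0.36 to 0.47. The sets differed. With TNF, r between *Ccr7* and *Aldh1a2* was 0.84 in mouse 2 and 0.71 in mouse 1, against 0.44 and -0.02 with IL4+IL13. Between *Ccl17* and *Gm8990*, r was highest, at 0.67, with IL4+IL13 in mouse 1. Only 2 of the 357 cells of that set had a fragment of *Ccl17*. The low counts that follow plate position enter these values. By Spearman's rho in place of Pearson's r, 3 to 4 of the 5 most alike were shared, *Cacnb3* was among them for *Apol7c* only, and the gene most like *Ccl17* was *Adcy6* and that most like *Ccr7* was *Ccl22*.

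The remaining genes among the most alike were *Fscn1*, *Il12b* and *Gm8990* for *Ccl17*, *Gm8221* and *Gm13546* for *Ccr7*, *Mir155hg*, the host gene of miR-155, for *Aldh1a2*, and *Gm8221* and *Arc* for *Apol7c*. *Gm8990* exceeded 100 CPM in no cell. *Gm8221* (ENSMUSG00000095704) lies at chr15:77621834-77626637, close to *Apol7c*, and exceeded 100 CPM in 9 of the 11 cells and in 3 others. In the 11 cells its fragments came to 18.7% of those of *Apol7c*, from 0.801% to 40.6% by cell.

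Most other genes of the pathways were low in the 11 cells. In the apolipoprotein L family, *Apol7a*, *Apol7b* and *Apol7e* had medians of 12.9, 2.49 and 2.18 CPM in the 11 cells, and their fragments came to 0.287%, 0.0821% and 0.0547% of those of *Apol7c*. *Apol10b* stood at 176 CPM in 1 of the 11 cells, was at 0 in the other 10, and exceeded 100 CPM in none of the 1349. Fragments were counted only when they mapped to 1 place, and near-identical copies in this family could split or lose them. Of the chemokine partners, *Ccr4*, *Ccl19*, *Ccl21a*, *Ackr2*, *Ackr4* and *Cx3cr1* were at 0 in all 11 cells, and *Cx3cl1*, which lies between *Ccl22* and *Ccl17*, reached at most 50.8 CPM. *Ciapin1*, the remaining gene of that list, exceeded 100 CPM in 2 of the 11 cells, reaching 307 CPM, and in 130 of the 1349.

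In the retinoic acid pathway, *Aldh1a1* and *Aldh1a3*, the other retinal dehydrogenases, were at 0 in all 11 cells, so *Aldh1a2* was the only one of the 3 found in them. *Dhrs3*, which turns retinal back into retinol, had a median of 7.46 CPM in the 11 cells and 580 CPM in the 1349, and exceeded 100 CPM in 2 and 1309 of them. *Rdh11* had 0 of the 11 and 301 of the 1349 cells over 100 CPM. *Rdh10*, which makes retinal, exceeded 100 CPM in 1 of the 11 cells and *Rarg*, a retinoic acid receptor, and *Rxra*, its partner, in none.

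Between the treatments, 0 of the genes of these lists passed the edgeR test on the sums. Of 27 mature dendritic cell genes, 22 were tested, with a median log2 fold change of 1.64 against 0.00 over all genes tested, and with the replicate block 9 rose and 0 fell, where 1.94% of all genes rose and 1.88% fell. Among them *Traf1* changed by a log2 fold of 2.32 ± 0.23 (SE; adjusted p = 0.135, with the replicate block 0.00798) and *Relb* by 2.22 ± 0.32 (0.206, with the block 0.00743), both in sums of all cells. *Cacnb3* changed by 5.65 ± 1.25 (adjusted p = 0.338, with the block 0.0921).

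Of the 8 MHC class II genes, all were tested, with a median of 1.08 and 4 risen with the block. For this and the lists below, 1.94% of all genes rose and 1.88% fell with the block. Of 13 macrophage genes, the median was -0.20, with 2 risen and 3 fallen with the block. Of 13 conventional dendritic cell genes, 9 were tested, with a median of 0.08, and with the block 2 rose, *Ly75* (log2 fold change 3.38 ± 0.40, adjusted p = 0.0137 with the block and 0.155 without) and *Itgax* (2.70 ± 0.52, 0.0145 and 0.271). Of 15 retinoic acid genes, 8 were tested, with a median of -0.31, and with the block 0 rose and 1 fell, *Dhrs3* at -0.59 ± 0.14 (adjusted p = 0.0307, and 0.358 without). Of 8 chemokine partners 2 were tested and neither passed with the block, and none of the 11 apolipoprotein L genes was frequent enough to be tested. Of the other cell type lists, neutrophil genes (2 of 8 tested, median 1.53), mast cell or basophil genes (1 of 6, -0.14), stromal genes (2 of 5, 0.46) and plasmacytoid dendritic cell genes (1 of 4, -1.60) had none that passed with the block. The B cell list had 1 gene tested, *Ighm*, which fell with the block (-2.17 ± 0.36, adjusted p = 0.0125, and 0.2197 without), and none of the 6 T or NK cell genes was tested.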

How the data were processed

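The authors deposited counts of uniquely mapped fragments per Ensembl 98 gene and well, aligned to mm10 with gsnap and counted with featureCounts 1.6.3, not normalized, with PCR copies included. 92 spike-in rows were left out of totals. 8 columns without a matching sample were left out, and 4 samples without a mouse in their labels were left unassigned. Of 55421 genes, 55154 matched a symbol by identifier. Wells more than 3 median absolute deviations below their plate's median in log total or log detected genes, or above it in mitochondrial or spike-in share, were removed. Depth per kept cell was 200235 to 6122892 fragments.

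Counts summed per mouse and treatment were tested with edgeR 4.0.16 (quasi-likelihood, TMM, treatment only, Benjamini-Hochberg, threshold 0.05) on genes in at least 5% of the cells of either treatment that pass filterByExpr. limma 3.58.1, DESeq2 1.42.0, library size, other filters and sums left out were alternatives. The mouse numbers pair the sums, since both treatments of a number come from the same animal, and their deviations correlated with r = 0.575 over 17034 genes. The code was tested on simulated counts. Whether the wells of 1 mouse come from several cultures is not given in the sources used here. In fits with treatment only, p-values measure the spread between 2 mice. With the replicate block they rest on how the difference between the treatments varied between the mice. Each mouse had its own plates, so mouse and plate cannot be told apart.

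The 5 genes, the marker lists and the tests were chosen with earlier results of these data known. Besides the 5 genes, the named genes are the 5 most alike for each, and up to 4 per list with the largest difference in the share of cells over 100 CPM between cells with 2 or more of the 5 genes over it and all others. Python 3.11.15, numpy 2.4.6, pandas 2.3.3 and scipy 1.17.1 were used.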

Additional observations from a re-analysis of the deposited data

Results flagged for a closer look

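Outside the comparisons, *Ccr7* exceeded its level in every kept cell with IL4+IL13 in 1 unassigned well. In this well of plate 4, whose label names IL4 and IL13 but no mouse and which was therefore not assigned to a group, *Ccr7* stood at 109.9 CPM, from 39 fragments, against at most 9.63 CPM in the 690 kept cells with IL4+IL13. The well lies in row P, among the rows with TNF, and had 11121 detected genes in 354874 fragments, against a median of 7851 genes in kept cells. A well with IL4+IL13 that the quality filter removed, C06 of plate 3, stood at 132 CPM of *Ccr7* from 3 fragments.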

How the results depend on the processing

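The log2 fold changes of the 5 genes stayed positive under every alternative run. With the mouse as a replicate block, all 5 passed the threshold, at 6.84 for *Ccl17*, 7.23 for *Ccl22*, 8.45 for *Ccr7*, 8.30 for *Aldh1a2* and 8.22 for *Apol7c*, and 651 genes were called in place of 1. With DESeq2, all 5 passed at 7.57, 7.92, 8.62, 8.70 and 7.999, and 598 genes were called. limma on the log2 of the mean CPM per cell + 1 called 0 genes (1532 at an unadjusted p under 0.05), with smaller differences of 3.65, 5.96, 5.45, 4.84 and 5.46 in the same order. With each sum left out in turn, the fold change ranged from 3.94 to 8.52 for *Ccl17*, 5.71 to 8.77 for *Ccl22*, 6.30 to 9.93 for *Ccr7*, 4.85 to 10.05 for *Aldh1a2* and 5.81 to 11.98 for *Apol7c*, and the genes called from 4 to 30. *Ccl17*, *Ccl22*, *Ccr7* and *Aldh1a2* passed without the TNF sum of mouse 1, and *Ccl22* also without that of mouse 2, fits that take the spread of a lone sum from the other treatment. The cause was not tested. Cells over 100 CPM of 2 or more genes numbered 14, with 1 and 13 on leaving out mouse 2 and mouse 1, and cells with all 5 numbered 11, with 1 and 10. Plate 4, left out as an alternative added after the data were seen, took them to 5 and 4. Limiting the thinned cells to wells that share no line with a high well was also added then. 2 mice, no molecular identifiers and low counts that follow plate position limit every low level here.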

Other observations

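The same unassigned well of plate 4, P03, held 36 fragments of *Ccl22* (101.4 CPM), 47 of *Apol7c* (132 CPM), 14 of *Ccl17* (39.5 CPM) and 1 of *Aldh1a2* (2.82 CPM) in a total of 354874 fragments, with 871 CPM of *Csf1r* and 11.3 CPM of *Fscn1*. The unassigned wells of plates 3 and 5 held no fragment of the 5 genes and 1 fragment each of *Ccl22* and *Apol7c*, in totals of 279461 and 87198 fragments. They had 10802 and 8314 detected genes. Whether the unassigned wells held single cells was not tested.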
